A study of Mus musculus with 16 samples.

Results

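The genes described are the collagens and laminins of mouse embryoid bodies (EBs), measured before and after 4 days of retinoic acid (RA). They were taken from the deposited table by name: every RefSeq row whose gene symbol is Col, a number, a and a number, or is Lama, Lamb or Lamc and a number. This gave 55 genes in 65 RefSeq rows, of 24159 genes in 33702 RefSeq rows in all. They were sorted into 11 fibrillar collagens, 17 basement membrane genes (6 type IV collagen and 11 laminin genes) and 27 other collagens. The gene Col21a1 was matched to no row and is not analysed here.

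EBs were made from R1 mouse ES cells, an established embryonic stem cell line, by 4 days of suspension culture without Lif. Total RNA was taken on the day RA was added (day 0) and after 4 days of 2 μM RA (day 4), and the procedure was repeated to give 2 RNA samples per day. Each of these 4 RNA samples was divided into 4 vials that received mouse in vitro transcribed (IVT) spike-in mix 1, mix 2, mix 3 or none of these (mix 4), together with ERCC mix 1 or 2, which gave 16 stranded, ribosomal RNA depleted libraries. The 4 vials hold the same RNA and were averaged, so that every comparison is of 2 against 2 RNA samples. All groups come from a single cell line, and no day 4 EBs without RA are among the samples, so that the effect of RA and that of 4 further days in culture cannot be told apart. EBs are mixtures of cells, and a change in the share of a cell type and a change of RNA per cell cannot be told apart either.

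Collagens are built from alpha chains that wind around each other in a triple helix. Fibrillar collagens such as types I, III and V assemble into the cable-like fibrils of connective tissue. Type IV collagen forms the sheet-like network of basement membranes, where it meets a separate network of laminins, each a cross-shaped trimer of an alpha, a beta and a gamma chain. In early mouse embryos and EBs, laminin and type IV collagen form the basement membrane that underlies the endoderm, and fibrillar collagens are made by mesenchymal cells.

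Values are FPKM (fragments per kilobase of transcript, scaled to the mapped fragments of the library), which are adjusted for transcript length. Between genes of unlike GC content they compare less well, because ratios of genes changed with the correction for GC content described below. Log2 fold changes are day 4 minus day 0 of log2(FPKM + 0.1), given with their standard error (SE) for n = 2 against 2, and they understate the change of genes near 0. A gene is called higher or lower where limma gave a Benjamini-Hochberg adjusted p, over the 20491 genes above 0, of at most 0.05. Vials of the same RNA correlated with r from 0.986 to 0.994 within 3 of the RNA samples, on the log2 scale over the 11584 genes with a mean of at least 1 FPKM. In RNA sample 2 of day 0 the mix 3 and mix 4 vials stood apart from the mix 1 and mix 2 vials, and the vials of this sample correlated with r from 0.831 to 0.992. These vials were low in GC-rich genes: over 11429 genes of at least 1 FPKM, the log2 difference of the mix 3 and mix 4 vials to the mix 1 and mix 2 vials had r = -0.807 with GC content. Results were therefore also computed without the mix 3 and mix 4 vials of RNA sample 2 of day 0, and on FPKM corrected for GC content within each library.

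On day 4 the collagen and laminin RNA had changed from a mostly basement membrane to a mostly fibrillar make-up. The 17 basement membrane genes together held 73.6% and 76.2% of the summed FPKM of the 55 genes in the RNA samples of day 0, and 23.2% and 22.3% on day 4. The 11 fibrillar genes held 14.4% and 13.4% at day 0 and 63.7% and 65.9% on day 4. In FPKM, the fibrillar genes summed to 61.7 and 24.6 at day 0 and 214.8 and 203.2 on day 4. The basement membrane genes summed to 315.6 and 140.0 at day 0 and 78.2 and 68.9 on day 4. Sums in FPKM do not share a common total between libraries. All RefSeq rows summed to 562109 to 616368 FPKM in the vials of RNA sample 1 of day 0. In those of RNA sample 2 of day 0 they summed to 409058 to 513598, and on day 4 to 408168 to 431978. The groups of vials did not overlap for the fibrillar sum, which was at most 70.7 FPKM in a day 0 vial and at least 196.0 FPKM in a day 4 vial. Without Col3a1 the fibrillar genes summed to 60.5 and 24.0 FPKM at day 0 and to 52.3 and 51.5 FPKM on day 4, which was 14.1% and 13.1% of the other members' FPKM at day 0 and 30% and 32.9% on day 4, so that Col3a1 carried the rise of the fibrillar sum. The vials overlapped for the basement membrane sum, whose lowest day 0 vial (70.9 FPKM) was below the highest day 4 vial (84.1 FPKM). Corrected for GC content, the fibrillar genes summed to 26.0 and 25.8 FPKM at day 0 and 231.1 and 253.2 FPKM on day 4, and the basement membrane genes to 148.6 and 132.7 FPKM at day 0 and 86.6 and 90.6 FPKM on day 4.

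Of the 55 genes, all of which were above 0 and tested, 20 were called higher (36.4%) and 8 lower (14.5%) on day 4. Over all genes tested, 16% were called higher and 14.5% lower. The median log2 fold change was 0.03 over the 55 genes and -0.03 over all genes. Among the fibrillar genes 4 of 11 were called higher and 1 lower, among the basement membrane genes 5 of 17 were called higher and 5 lower, and among the other collagens 11 of 27 were called higher and 2 lower. All 8 vials of day 4 lay above all 8 of day 0 for 21 of the 55 genes (19.8% of all genes) and below them for 8 (14.6% of all genes). Without the mix 3 and mix 4 vials of RNA sample 2 of day 0, 22 members were called higher (27.1% of all genes) and 19 lower (33.6% of all genes), and with the correction for GC content 30 were called higher (27.6% of all genes) and 13 lower (24.3% of all genes). In both of these as well as in the values as deposited, 19 genes were called higher and 7 lower. With the replicate number as a block, 23 were called higher (22.5% of all genes) and 16 lower (29.1% of all genes). When RNA sample 1 or RNA sample 2 of day 4 was left out, limma called 0 members and 0 of all genes, with 18 and 20 members at an unadjusted p under 0.05.

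**Figure D1:**
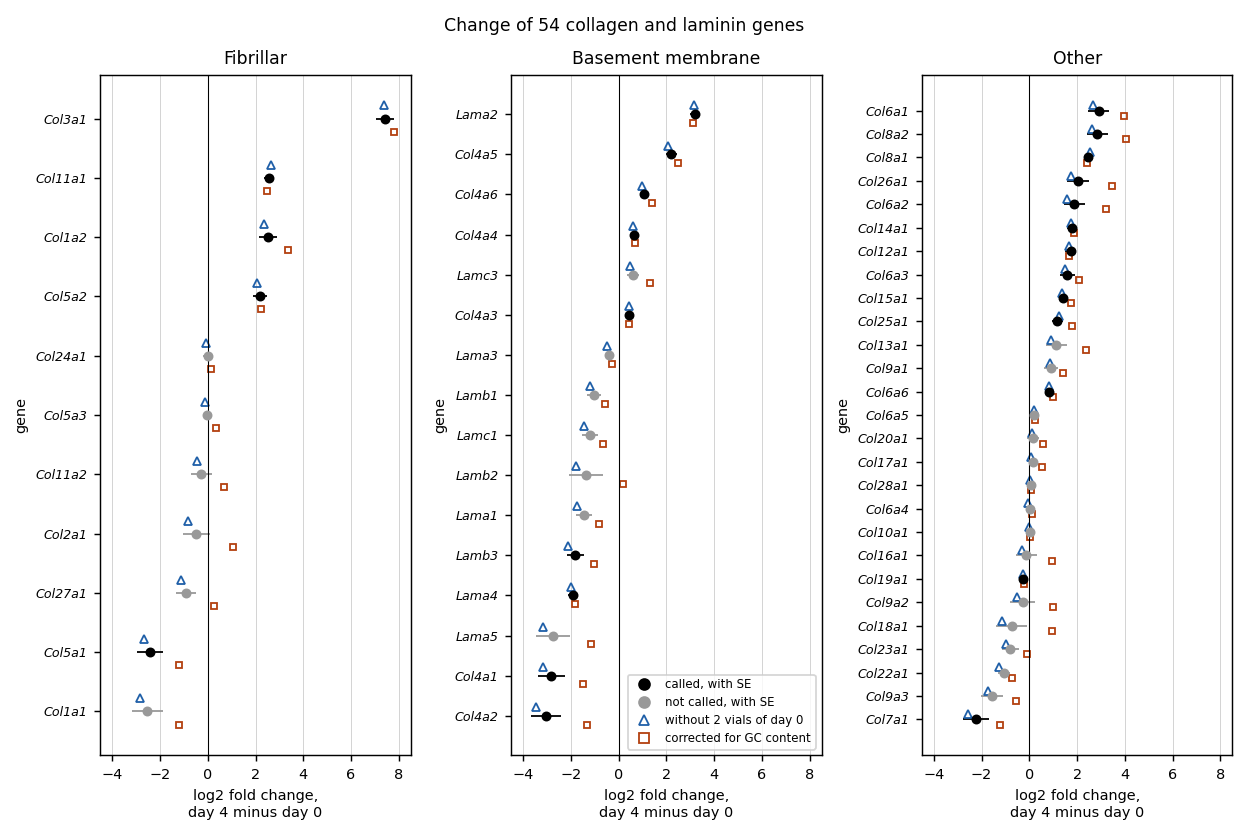
Log2 fold change (day 4 minus day 0) of 54 of the 55 collagen and laminin genes, by class. Filled circles with bars are the estimate and its SE over 2 against 2 RNA samples, black where the adjusted p was at most 0.05 and grey where it was not; triangles leave out the mix 3 and mix 4 vials of RNA sample 2 of day 0, and squares are corrected for GC content. Col3a1 stands furthest to the right at 7.43, and among the genes left of 0 the squares lie nearer to 0 than the circles for Col1a1, Col5a1, Col4a1 and Col4a2.

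Col3a1, the chain of type III collagen, had the largest change of the 55 genes. It was at 1.18 and 0.55 FPKM in the RNA samples of day 0 and at 162.5 and 151.7 FPKM on day 4, a log2 fold change of 7.43 (SE 0.38, limma, Benjamini-Hochberg adjusted p = 0.00456). All day 4 vials lay far above those of day 0. Its share of the fibrillar FPKM went from 1.92% and 2.24% to 75.6% and 74.7%. The gene lies on chromosome 1 (chr1:45311538-45349706, GRCm38), 24624 bases from Col5a2 on the same chromosome.

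The chains of type I collagen, the main fibril of bone, skin and tendon, moved in opposite directions. Col1a2 was at 5.41 and 2.76 FPKM at day 0 and at 23.2 and 22.6 FPKM on day 4 (log2 fold change 2.53, SE 0.37, limma, Benjamini-Hochberg adjusted p = 0.0189). Col1a1 was at 20 and 5.98 FPKM at day 0 and at 2.00 and 1.62 FPKM on day 4. The vials of the days did not overlap for either gene, Col1a2 being higher and Col1a1 lower on day 4. The change of Col1a1, -2.54 (SE 0.65), did not pass in limma (Benjamini-Hochberg adjusted p = 0.0560). It passed with the replicate block (adjusted p = 0.000309 in limma), and over the 14 alternatives its adjusted p ranged from 0.000309 to 0.453. The ratio of Col1a1 to Col1a2 FPKM was 3.70 and 2.16 at day 0 and 0.0864 and 0.0717 on day 4. In single vials it was never below 1.22 at day 0 nor above 0.0931 on day 4.

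Type V collagen, which joins type I fibrils and limits their width, showed the same split between its chains. Col5a1 was at 25.8 and 9.83 FPKM at day 0 and at 3.20 and 2.62 FPKM on day 4, and it was called lower (log2 fold change -2.42, SE 0.53, limma, Benjamini-Hochberg adjusted p = 0.0413). Col5a2 was at 4.07 and 2.46 FPKM at day 0 and at 14.6 and 14.8 FPKM on day 4, and it was called higher (2.18, SE 0.30, adjusted p = 0.0167). The vials of the days overlapped for neither gene. The ratio of Col5a1 to Col5a2 FPKM was 6.35 and 3.99 at day 0 and 0.219 and 0.177 on day 4. After the correction for GC content it was 2.59 and 4.00 at day 0 and 0.284 and 0.291 on day 4, so that both ratios were above 1 at day 0 and below 1 on day 4 with either set of values.

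**Figure D2:**
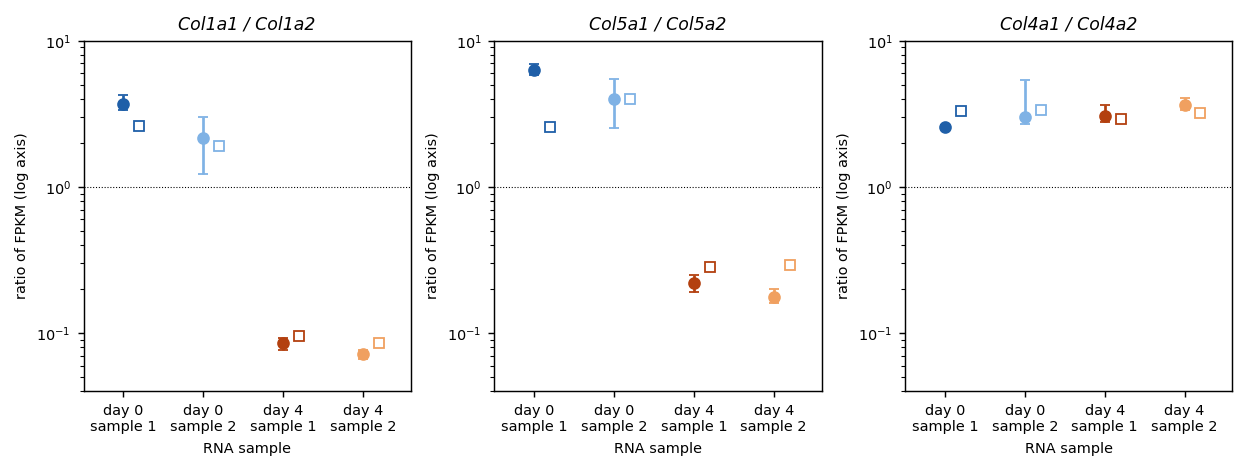
Ratio of the FPKM of paired chains (log axis) in each RNA sample. Circles are the mean FPKM of the 4 vials of one gene over that of the other, bars run from the lowest to the highest vial, squares are corrected for GC content and the dotted line marks equal FPKM. Col1a1 to Col1a2 and Col5a1 to Col5a2 lie above 1 at day 0 and below 1 on day 4, while Col4a1 to Col4a2 lies above 1 in all 4 RNA samples.

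Col11a1, a minor fibril chain of cartilage and other tissues, was at 1.31 and 1.2 FPKM at day 0 and at 7.47 and 8.23 FPKM on day 4 (log2 fold change 2.55, SE 0.21, limma, Benjamini-Hochberg adjusted p = 0.00683). The RNA samples of each day lay close together and the days were well apart. The other 5 fibrillar genes (Col2a1, Col5a3, Col11a2, Col24a1 and Col27a1) had means of 0.0266 to 0.920 FPKM and were not called. Among them Col2a1, the main collagen of cartilage, was at 1.73 and 0.56 FPKM at day 0 and at 0.76 and 0.63 FPKM on day 4, and its vials overlapped between the days. Its log2 fold change was -0.48 as deposited and 1.07 after the correction for GC content, with which it was called higher.

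The sequences before the starts are given for Col3a1, the largest rise, for Col1a2 and Col5a1, fibrillar genes that moved in opposite directions, and for Col4a5, the leading type IV collagen gene of day 4. They are from RefSeq (GRCm38.p6), 5′ to 3′ on the plus strand, and end at the base before the outermost annotated start of each gene. Capitals mark matches, on either strand, to short motifs of promoters. These were the motif TATAAA of the classical core promoter, the CCAAT box of many inducible promoters, the GC box motif GGGCGG that Sp1 family factors bind, and AGGTCA, the core of retinoic acid receptor sites. The Col3a1 sequence is chr1:45311288-45311537, that of Col1a2 chr6:4505368-4505617, that of Col5a1 chr2:27886175-27886380 and that of Col4a5 chrX:141475169-141475369.
Col3a1: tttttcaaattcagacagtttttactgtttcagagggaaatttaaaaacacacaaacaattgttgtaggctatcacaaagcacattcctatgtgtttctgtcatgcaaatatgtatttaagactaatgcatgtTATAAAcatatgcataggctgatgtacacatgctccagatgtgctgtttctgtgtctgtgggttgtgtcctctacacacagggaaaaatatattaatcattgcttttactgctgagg
Col1a2: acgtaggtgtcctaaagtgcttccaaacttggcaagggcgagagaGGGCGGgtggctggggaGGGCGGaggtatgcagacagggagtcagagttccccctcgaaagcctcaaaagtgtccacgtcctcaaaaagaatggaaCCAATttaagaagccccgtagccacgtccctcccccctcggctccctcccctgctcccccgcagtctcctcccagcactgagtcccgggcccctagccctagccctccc
Col5a1: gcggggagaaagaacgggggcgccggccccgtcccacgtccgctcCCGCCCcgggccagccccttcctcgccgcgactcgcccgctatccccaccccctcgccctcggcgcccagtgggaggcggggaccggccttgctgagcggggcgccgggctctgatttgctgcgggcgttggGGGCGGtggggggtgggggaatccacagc
Col4a5: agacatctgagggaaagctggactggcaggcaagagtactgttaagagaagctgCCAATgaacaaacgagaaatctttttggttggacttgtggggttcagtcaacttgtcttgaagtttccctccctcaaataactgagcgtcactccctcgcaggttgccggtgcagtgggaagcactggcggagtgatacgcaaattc

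The 250 bases before the curated start differed widely in composition between these genes. They had 35.2% GC and 0 CpG in Col3a1, 62.0% GC and 11 CpG in Col1a2, 54.0% GC and 10 CpG in Col4a5, and 76.4% GC and 28 CpG in Col5a1. Col3a1 held TATAAA, which begins at -117 from the start, and Col1a2 held GC boxes and a CCAAT box. Windows were found for 40 of the 55 genes. GGGCGG was in 23 of the 40 (57.5%) against 32.9% of the windows of 27025 genes, CCAAT in 13 (32.5%, against 34.5%), TATAAA in 5 (12.5%, against 13%) and AGGTCA in 8 (20%, against 13.8%). Among members with a window, AGGTCA was in 2 of the 15 called higher and in 1 of the 6 called lower. The members' windows had a median of 59.2% GC, against 52% over all windows, and a match to so short a motif is only a description of the letters.

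The 6 type IV collagen genes lie in the genome as head-to-head pairs, and in these data the members of each pair changed in the same direction. Col4a1 and Col4a2 encode the chains of the common type IV network of nearly all basement membranes. Col4a1 had the highest level of the 55 genes at day 0, with 131.9 and 47.3 FPKM, and was at 11.8 and 10.6 FPKM on day 4 (log2 fold change -2.81, SE 0.55, limma, Benjamini-Hochberg adjusted p = 0.0328). Col4a2 was at 51.0 and 15.8 FPKM at day 0 and at 3.86 and 2.92 FPKM on day 4 (-3.04, SE 0.64, adjusted p = 0.0374). The vials of the days did not overlap for Col4a1, and for Col4a2 they did, because the lowest vial of RNA sample 2 of day 0 gave 3.44 FPKM. The ratio of Col4a1 to Col4a2 was 2.59 and 2.99 at day 0 and 3.05 and 3.61 on day 4, and its vials overlapped between the days. The annotated genes overlap by 85 bases at their starts on chromosome 8, on opposite strands, Col4a1 from 11198423 to 11312889 and Col4a2 from 11312805 to 11449287.

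Col4a5 and Col4a6, whose chains form the type IV network of smooth muscle and some epithelia, were higher on day 4. Col4a5 was at 4.82 and 3.54 FPKM at day 0 and at 20.7 and 18.4 FPKM on day 4 (log2 fold change 2.21, SE 0.23, limma, Benjamini-Hochberg adjusted p = 0.00983). Col4a6 was at 0.0978 and 0.0965 FPKM at day 0 and at 0.365 and 0.266 FPKM on day 4 (1.07, SE 0.18, adjusted p = 0.0259). Neither gene had overlapping vials, and Col4a5 was far above its partner on both days. They start 1274 bases apart on the X chromosome, Col4a5 from 141475370 to 141689236 and Col4a6 from 141165403 to 141474095.

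The pair Col4a3 and Col4a4, known for the basement membrane of the kidney glomerulus, was almost undetected. Col4a3 was at 0.00275 and 0 FPKM at day 0 and at 0.0330 and 0.0380 FPKM on day 4 (log2 fold change 0.42, SE 0.06, limma, Benjamini-Hochberg adjusted p = 0.0165). Col4a4 was at 0.00825 and 0.00250 FPKM at day 0 and at 0.0575 and 0.0693 FPKM on day 4 (0.63, SE 0.08, adjusted p = 0.0130). Both passed the test and had vials that did not overlap, but their levels on day 4 were below 0.1 FPKM in every RNA sample. The annotated genes share 114 bases at their starts on chromosome 1.

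Col4a5 replaced Col4a1 as the type IV gene with the most FPKM. Col4a1 held 70.2% and 70.9% of the type IV FPKM at day 0 and 32.0% and 32.7% on day 4. The share of Col4a2 was 27.1% and 23.7% at day 0 and 10.5% and 9.05% on day 4. Col4a5 held 2.56% and 5.31% at day 0 and 56.3% and 57.1% on day 4. The vials of the days did not overlap for any of these 3 shares. Corrected for GC content the share of Col4a5 was 5.47% and 6.21% at day 0 and 50.9% and 46.7% on day 4. That of Col4a1 was then 72.6% and 72.3% at day 0 and 35.6% and 39.9% on day 4, so that the lead of Col4a5 was smaller.

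**Figure D3:**
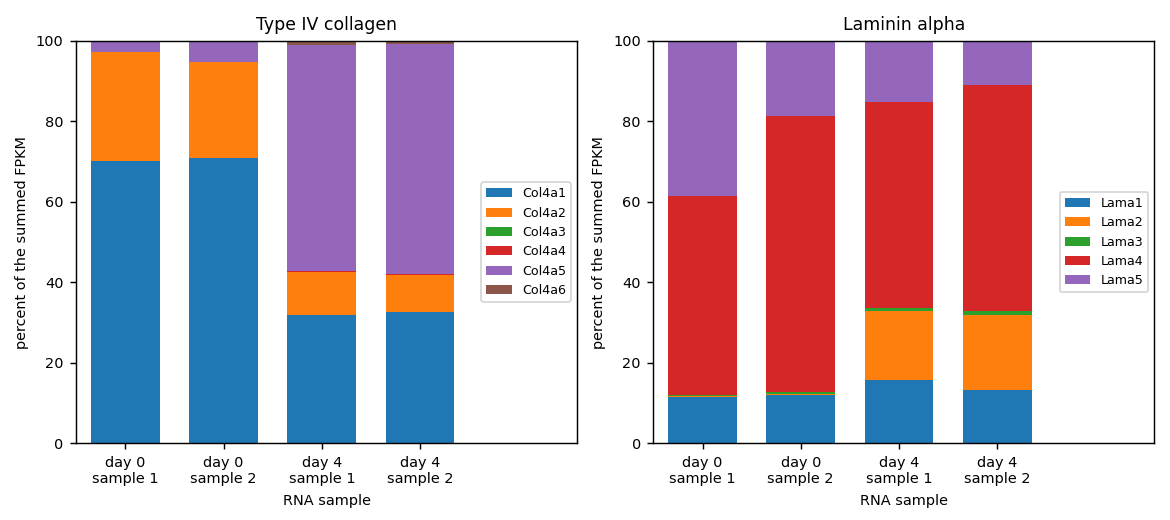
Share of each gene in the summed FPKM of the type IV collagen genes (left) and of the laminin alpha genes (right), in percent, for each RNA sample. Col4a5 goes from at most 5.31% at day 0 to at least 56.3% on day 4, and Lama2 from at most 0.291% to at least 17.0%.

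Among the 11 laminin genes, Lama2 was called higher (9.09%) and 3 were called lower (27.3%), Lama4 and Lamb3 among them. Over all genes 16% were called higher and 14.5% lower. Without the mix 3 and mix 4 vials of RNA sample 2 of day 0, 1 was called higher and 9 lower (27.1% and 33.6% of all genes). With the correction for GC content, 2 were called higher and 7 lower (27.6% and 24.3% of all genes). Lama2, the alpha chain of muscle and nerve basement membranes, was at 0.0600 and 0.0593 FPKM at day 0 and at 1.32 and 1.39 FPKM on day 4 (log2 fold change 3.19, SE 0.19, limma, Benjamini-Hochberg adjusted p = 0.00471). Lama4, the alpha chain of vessel walls, was at 17.4 and 14.0 FPKM at day 0 and at 3.95 and 4.19 FPKM on day 4 (-1.91, SE 0.20, adjusted p = 0.00983). The vials of the days were apart for both. Lama4 nevertheless kept the largest share of the laminin alpha FPKM, 49.5% and 68.5% at day 0 and 51.1% and 56.2% on day 4. Lama2 made up 0.171% and 0.291% of it at day 0 and 17.0% and 18.7% on day 4.

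Lama1 and Lama5, the alpha chains of the early embryonic basement membrane, were lower on day 4 in their means but just missed the threshold. Lama1 was at 4.05 and 2.44 FPKM at day 0 and at 1.22 and 0.98 FPKM on day 4 (log2 fold change -1.45, SE 0.35, limma, Benjamini-Hochberg adjusted p = 0.0501). Lama5 was at 13.5 and 3.80 FPKM at day 0 and at 1.19 and 0.81 FPKM on day 4 (-2.75, SE 0.70, adjusted p = 0.0552). Their vials overlapped through RNA sample 2 of day 0, in which Lama5 ranged from 0.865 to 8.55 FPKM. Both passed with the replicate block in limma, with Benjamini-Hochberg adjusted p of 0.00384 for Lama1 and 0.000228 for Lama5. Over the 14 alternatives the adjusted p ranged from 0.00359 to 0.552 for Lama1 and from 0.000228 to 0.591 for Lama5. Lama3, an epithelial alpha chain, had a mean of 0.0945 FPKM and was not called.

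Lamb1 and Lamc1, the beta and gamma chains that most laminins share, were the most abundant laminin RNAs on both days. Lamb1 was at 50.8 and 32.2 FPKM at day 0 and at 21.1 and 18.6 FPKM on day 4 (log2 fold change -1.03, SE 0.28, limma, Benjamini-Hochberg adjusted p = 0.0614). Lamc1 was at 26.8 and 14.7 FPKM at day 0 and at 9.18 and 8.10 FPKM on day 4 (-1.19, SE 0.35, adjusted p = 0.0727). Neither passed, and the vials overlapped for both. With the replicate block they passed in limma, with Benjamini-Hochberg adjusted p of 0.00287 for Lamb1 and 0.00266 for Lamc1. The alternatives gave 0.00287 to 0.445 for Lamb1 and 0.00266 to 0.552 for Lamc1. The ratio of Lamb1 to Lamc1 was 1.90 and 2.20 at day 0 and 2.29 and 2.30 on day 4, and the vials of the days overlapped.

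The remaining beta and gamma chains were less abundant. Lamb3, a chain of epithelial laminin, was at 0.521 and 0.229 FPKM at day 0 and at 0.0288 FPKM in both RNA samples of day 4 (log2 fold change -1.81, SE 0.35, limma, Benjamini-Hochberg adjusted p = 0.0318). The vials of the days did not overlap for this gene. Lamb2, the beta chain of synapses and the glomerulus, was at 8.99 and 2.49 FPKM at day 0 and at 2.24 and 1.44 FPKM on day 4, with overlapping vials. Its change of -1.35 (SE 0.71, adjusted p = 0.216 in limma) passed with the replicate block (adjusted p = 0.00910) and was 0.18 after the correction for GC content, with adjusted p from 0.00910 to 1 over the 14 alternatives. Lamc3 had a mean of 0.133 FPKM and was not called, but passed as higher with the replicate block (log2 fold change 0.61, adjusted p = 0.0189 in limma, and 0.00139 to 0.474 over the 13 alternatives).

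**Figure D4:**
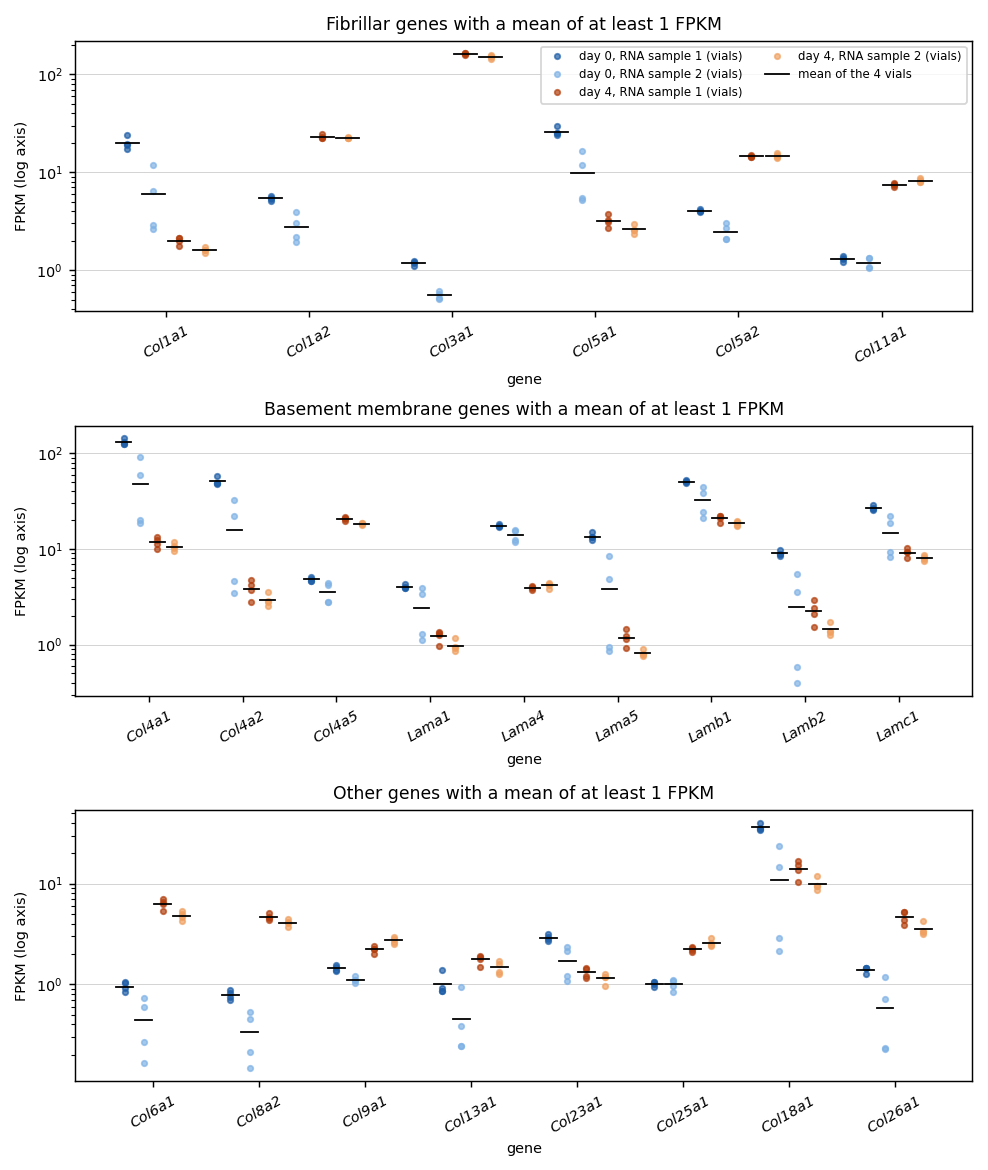
FPKM (log axis) of 23 of the 24 collagen and laminin genes with a mean of at least 1 FPKM over the 4 RNA samples, by class. Each point is a vial, coloured by RNA sample, and black bars are the means of the 4 vials. The 4 vials of RNA sample 2 of day 0 are spread widely for Col4a2, Lama5, Lamb2 and Col18a1, and those of the other RNA samples lie close together.

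Of the 6 genes of type VI collagen, which forms beaded filaments around cells, 4 were called higher (66.7%) and 0 lower on day 4. Over all genes 16% were called higher and 14.5% lower. Col6a1 was at 0.952 and 0.442 FPKM at day 0 and at 6.31 and 4.82 FPKM on day 4 (log2 fold change 2.89, SE 0.43, limma, Benjamini-Hochberg adjusted p = 0.0193). Col6a2 was at 0.396 and 0.163 FPKM at day 0 and at 1.51 and 0.998 FPKM on day 4 (1.88, SE 0.44, adjusted p = 0.0466). Col6a3 was at 0.168 and 0.0818 FPKM at day 0 and at 0.681 and 0.462 FPKM on day 4 (1.59, SE 0.31, adjusted p = 0.0332). These are the chains of the usual type VI trimer, and the vials of the days were apart for each. Col6a6 was called higher at a low level, 0.0273 and 0.0125 FPKM at day 0 and 0.124 and 0.103 FPKM on day 4, and Col6a4 and Col6a5 were not called.

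The short-chain collagens Col8a1 and Col8a2, which form the hexagonal lattice of Descemet's membrane and occur in vessel walls, were called higher. Col8a2 was at 0.788 and 0.337 FPKM at day 0 and at 4.69 and 4.10 FPKM on day 4 (log2 fold change 2.85, SE 0.43, limma, Benjamini-Hochberg adjusted p = 0.0204). Col8a1 was at 0.0678 and 0.0440 FPKM at day 0 and at 0.725 and 0.806 FPKM on day 4 (2.48, SE 0.19, adjusted p = 0.00619). No vials overlapped between the days. Col10a1, the short-chain collagen of hypertrophic cartilage, had a mean of 0.00444 FPKM and was not called.

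Among the 9 FACIT genes, whose products sit on the surface of fibrils, 2 were called higher (22.2%) and 1 lower (11.1%). These shares were near the 16% and 14.5% of all genes. Col12a1 was at 0.367 and 0.331 FPKM at day 0 and at 1.38 FPKM in both RNA samples of day 4 (log2 fold change 1.72, SE 0.23, limma, Benjamini-Hochberg adjusted p = 0.0154). Col14a1 was at 0.146 and 0.168 FPKM at day 0 and at 0.753 and 0.796 FPKM on day 4 (1.77, SE 0.20, adjusted p = 0.0113). Both bind type I fibrils in dense connective tissue, and neither had overlapping vials. Col19a1 was called lower at levels close to 0, with 0.0353 and 0.0345 FPKM at day 0 and 0.0143 and 0.00725 FPKM on day 4 (-0.29, SE 0.06, adjusted p = 0.0426). Col9a1, a cartilage FACIT, was at 1.45 and 1.12 FPKM at day 0 and at 2.23 and 2.74 FPKM on day 4, with no overlap of vials. Its change of 0.91 (SE 0.27) had an adjusted p of 0.0775 in limma, which was 0.0413 with the replicate block and 0.0195 to 0.460 over the 14 alternatives.

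Of the transmembrane collagens, Col25a1, which is found in neurons and developing muscle, was called higher. It was at 1.02 and 1.00 FPKM at day 0 and at 2.24 and 2.59 FPKM on day 4 (log2 fold change 1.18, SE 0.23, limma, Benjamini-Hochberg adjusted p = 0.0339). Col13a1 was at 1.00 and 0.453 FPKM at day 0 and at 1.77 and 1.47 FPKM on day 4 (1.14, SE 0.43, adjusted p = 0.121, and 0.0196 with the replicate block, with 0.00281 to 0.459 over the alternatives). Col23a1 was at 2.89 and 1.69 FPKM at day 0 and at 1.32 and 1.15 FPKM on day 4 (-0.80, SE 0.35, adjusted p = 0.158). The vials overlapped for Col13a1 and Col23a1 and not for Col25a1. Col17a1, the collagen of hemidesmosomes, had a mean of 0.0619 FPKM and was not called.

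Of the multiplexins, which carry the antiangiogenic fragments of types XV and XVIII in basement membranes, Col18a1 was the more abundant by far. It was at 36.3 and 10.8 FPKM at day 0 and at 14.1 and 9.85 FPKM on day 4, and its vials overlapped. The log2 fold change of Col18a1 was -0.75 (SE 0.66, limma, Benjamini-Hochberg adjusted p = 0.429), and after the correction for GC content it was 0.94, so that its direction depends on the treatment of GC content. Over the 14 alternatives its adjusted p ranged from 0.0133 to 0.982. Col15a1 was at 0 and 0.01 FPKM at day 0 and at 0.187 and 0.169 FPKM on day 4 (1.41, SE 0.10, adjusted p = 0.00566), and its vials did not overlap.

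Col26a1, a collagen known from testis and ovary, and Col7a1, the anchoring fibril of skin, moved in opposite directions. Col26a1 was at 1.40 and 0.588 FPKM at day 0 and at 4.68 and 3.53 FPKM on day 4 (log2 fold change 2.03, SE 0.48, limma, Benjamini-Hochberg adjusted p = 0.0475). Col7a1 was at 0.804 and 0.230 FPKM at day 0 and at 0.0168 and 0.0143 FPKM on day 4 (-2.24, SE 0.54, adjusted p = 0.0489). Both lay just inside the threshold, and the vials were apart for Col26a1 and overlapped for Col7a1. The 10 other collagens that were neither called nor at a mean of 1 FPKM (Col6a4, Col6a5, Col9a2, Col9a3, Col10a1, Col16a1, Col17a1, Col20a1, Col22a1 and Col28a1) had means of at most 0.888 FPKM. With the replicate block, Col9a3 (-1.58, limma, Benjamini-Hochberg adjusted p = 0.00648, and 0.00648 to 0.388 over the 13 alternatives) and Col22a1 (-1.05, adjusted p = 0.00734, and 0.00372 to 0.302 over the 13 alternatives) were called lower.

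Of the 9 genes with 2 or more RefSeq rows, Col25a1, Lamb3 and Col6a6 had a different leading transcript on each day. In Col25a1 the transcript NM_029838 held 56.3% and 44.9% of the gene's FPKM at day 0, and NM_001244952 held 48.1% and 65.7% on day 4. In Lamb3 the transcript NM_008484 held 78.3% and 53.0% at day 0, and NM_001277928 held 100% and 66.1% on day 4, when the gene was close to 0. In Col6a6 NM_172927 held 68.8% and 60% at day 0 and NM_001102607 held 92.3% and 88.0% on day 4. Among RefSeq rows, 10.2% were called higher and 8.67% lower. Of these transcripts NM_001277928 was called lower and NM_001102607 higher, and the transcripts of Col25a1 were not called. For no member were transcripts called in opposite directions, and RSEM shares fragments between transcripts of a gene by estimate.

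The difference between the RNA samples of day 0 followed the GC content of the genes. Over the 55 members the log2 difference of RNA sample 2 minus RNA sample 1 of day 0 had a Pearson correlation of -0.748 with GC content, and over 11429 genes of at least 1 FPKM it was -0.864. At day 4 the same correlation over the members was -0.553. The log2 fold change between the days had r = -0.351 with GC content over the members and -0.438 over the 11429 genes. All points share the same 4 RNA samples, and genes are not independent replicates. The members' median GC content was 54.4%, against 49.8% over all genes tested, and it was 58.0% in the fibrillar, 53.0% in the basement membrane and 55.1% in the other genes. GC-rich members such as Col4a2 (60.6% GC) and Col1a1 (58.9% GC) had unequal RNA samples at day 0, whereas Lama4 (50.0% GC), Lama2 (47.7% GC) and Col11a1 (48.0% GC) had nearly equal ones. The correction for GC content moved the falls towards 0, to a log2 fold change of -1.49 for Col4a1, -1.34 for Col4a2, -1.19 for both Col5a1 and Col1a1, -1.14 for Lama5, -1.25 for Col7a1 and -1.03 for Lamb3, all called lower with it. It raised the changes of Col6a1 to 3.95, Col6a2 to 3.23, Col8a2 to 4.06, Col26a1 to 3.47 and Col1a2 to 3.38, and left Lama4 at -1.81, Lama2 at 3.13 and Col11a1 at 2.47. Without the mix 3 and mix 4 vials of RNA sample 2 of day 0 the falls were larger, at -3.15 for Col4a1, -3.44 for Col4a2, -2.69 for Col5a1 and -2.85 for Col1a1. Among the members called neither way as deposited, 11 were called higher with the correction for GC content, Col2a1 (1.07) and Col18a1 (0.94) among them. With this correction 27.6% of all genes were called higher. The count of fibrillar genes called higher went from 4 to 7, through Col2a1, Col5a3 (mean of 0.0266 FPKM) and Col11a2 (0.146 FPKM). The calls of Col19a1 (lower) and Col25a1 (higher) were lost with that correction.

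**Figure D5:**
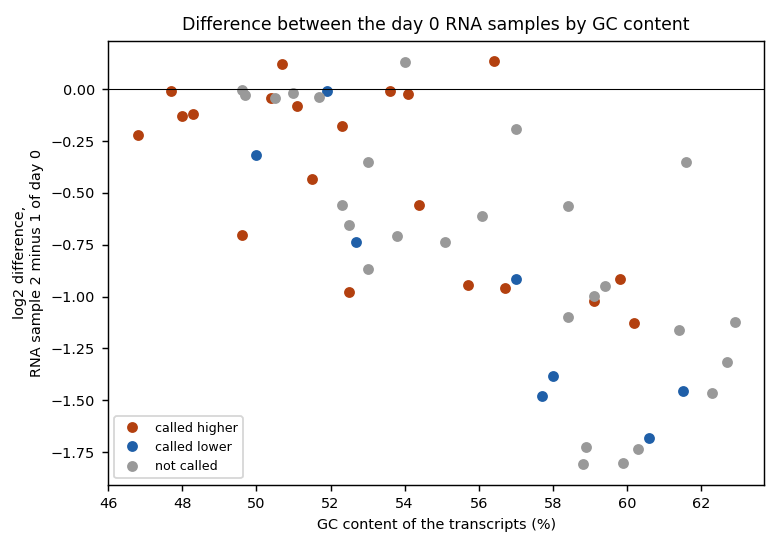
Log2 difference of RNA sample 2 minus RNA sample 1 of day 0 (on log2(FPKM + 0.1)) against the GC content of the transcripts, in percent, for the 55 collagen and laminin genes, coloured by their call between the days. Genes of under 50% GC lie mostly near 0, and those of over 57% GC reach below -1.5 (r = -0.748).

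The genes that process, bind or degrade collagen and laminin were counted in 4 lists. Of 27 genes of collagen assembly, 5 were called higher and 4 lower (median log2 fold change -0.10), against 16% and 14.5% of all genes, which the shares of this list and of the lists of receptors and turnover are close to or below. Lox, which cross-links collagen, was at 0.0618 and 0.0978 FPKM at day 0 and at 4.45 and 4.74 FPKM on day 4 (log2 fold change 4.71, SE 0.25, limma, Benjamini-Hochberg adjusted p = 0.00456), and its relative Loxl1 was called higher as well (2.99, SE 0.47, adjusted p = 0.0213). Loxl4 was called lower (-4.58, SE 0.32, adjusted p = 0.00540), as was Pcolce2, an enhancer of procollagen processing (-3.41, SE 0.31, adjusted p = 0.00797). The lysyl oxidase family thus held members that rose and a member that fell.

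Of 16 further basement membrane genes, 5 were called higher and 3 lower (median log2 fold change 0.07), again against 16% and 14.5% of all genes. Fn1, fibronectin, was at 256.4 and 163.8 FPKM at day 0 and at 6.88 and 6.08 FPKM on day 4 (-4.97, SE 0.27, limma, Benjamini-Hochberg adjusted p = 0.00465). Hspg2, perlecan, was called lower, with 11.9 and 2.67 FPKM at day 0 and 0.448 and 0.264 FPKM on day 4 (-3.69, SE 0.82, adjusted p = 0.0420). Its vials overlapped, it has 60.9% GC, and after the correction for GC content its change was -1.96. Smoc2 (3.94, SE 0.30, adjusted p = 0.00605) and Fras1 (2.40, SE 0.31, adjusted p = 0.0150) were called higher, the first a matricellular protein and the latter a protein of the embryonic skin basement membrane.

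Among 12 receptors tested, 2 were called higher and 2 lower (median log2 fold change -0.19), and the receptor gene Itga10 was matched to no row and is not analysed here. Ddr2, a tyrosine kinase receptor for fibrillar collagen, was at 0.0728 and 0.0835 FPKM at day 0 and at 2.19 and 2.1 FPKM on day 4 (3.66, SE 0.21, limma, Benjamini-Hochberg adjusted p = 0.00468). Itga2, a collagen-binding integrin, was called higher (1.08, SE 0.16, adjusted p = 0.0185), and the laminin-binding integrins Itga7 (-1.99, SE 0.45, adjusted p = 0.0440) and Itga6 (-0.99, SE 0.16, adjusted p = 0.0218) were called lower. Of 12 genes of turnover 2 were called higher and 1 lower (median log2 fold change 0.40). Timp3, an inhibitor of matrix proteases, was at 4.81 and 5.07 FPKM at day 0 and at 51.6 and 52.0 FPKM on day 4 (3.36, SE 0.14, adjusted p = 0.00456). The membrane protease Mmp16 rose (3.21, SE 0.21, adjusted p = 0.00518) and the gelatinase Mmp9, which cleaves type IV collagen, fell (-4.81, SE 0.45, adjusted p = 0.00849).

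Markers of some cell types also differed between the days, and not all members of a list moved alike. The counts of these lists stand against 16% called higher and 14.5% called lower over all genes. Of 6 pluripotency genes, 0 were called higher and 5 lower, and their sum was 149.9 and 108.2 FPKM at day 0 and 5.41 and 4.12 FPKM on day 4, in libraries that are all labelled as embryonic stem cells. Of 8 mesenchyme genes, 6 were called higher and 1 lower. Their sum was 30.1 and 24.9 FPKM at day 0 and 95.1 and 95.7 FPKM on day 4. Most of this sum was in Twist1 (means of 10.2 FPKM at day 0 and 43.1 FPKM on day 4) and Pdgfra (6.69 and 37.2 FPKM). Thy1 was called lower (1.23 and 0.163 FPKM), and Pdgfrb was lower in its mean but not called (8.60 and 2.33 FPKM). Of 10 endoderm genes, 6 were called higher and 1 lower, with a sum of 26.6 and 23.2 FPKM at day 0 and 193.3 and 181.3 FPKM on day 4. Much of that rise was in Plat (means of 3.76 FPKM at day 0 and 102.7 FPKM on day 4) and Gata6 (6.36 and 54.4 FPKM). Sox7 was the gene called lower (3.38 and 1.02 FPKM), so that the sum does not stand for the whole list. The endothelium list (0 higher and 2 lower of 4) summed to 70.1 and 62.7 FPKM at day 0 and to 36.8 and 34.4 FPKM on day 4. The cartilage list (1 higher and 2 lower of 4) summed to 10.2 to 15.7 FPKM and the neural list (2 higher and 2 lower of 6) to 23.9 to 41.7 FPKM over the 4 RNA samples. As a check of the treatment label, 3 of 5 genes of the RA response were called higher and 1 lower. Rarb was called higher, at 0.190 and 0.2 FPKM at day 0 and 106.4 and 107.5 FPKM on day 4. Cyp26a1 was called lower, at 48.9 and 52.4 FPKM at day 0 and 8.43 and 9.34 FPKM on day 4 (log2 fold change -2.50). Hoxb1 was not called (0.02), so that the genes of this list did not all move alike. No marker was at 0 in all libraries. The part of these cell types in the changes of the collagens and laminins was not tested.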

How the data were processed

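The table holds FPKM values that the authors deposited for 33750 transcripts in 16 libraries. Per the labels, 39000000 to 59000000 paired-end reads were sequenced per sample. The authors aligned the reads with bowtie2 2.1.0 to RefSeq transcripts of mm10 with the spike-in transcripts, estimated abundances with RSEM 1.2.18 and scaled them with a TMM factor per library. The submitters' processing notes also name TopHat2 2.0.10. Fragments per transcript are not in the table, so no counting error is given for single values. The 48 AK rows were left out. RefSeq rows were matched to symbols (99.2%) and to a GC content (97.4%), and FPKM were summed per gene and averaged over the 4 vials of an RNA sample. The RNA sample of each vial follows the study's description of its samples.

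Days were compared in R 4.3.3 with limma 3.58.1 (lmFit, eBayes with a trend) on log2(FPKM + 0.1), 2 against 2, with Benjamini-Hochberg adjustment over 20491 genes. An exact two-sided permutation test of 2 against 2 cannot go below 0.333 and was not used. The correction for GC content removed from every library its difference to the average library, in 20 bins of GC content, and can remove differences between the days that go with GC content. On simulated data with 200 of 20491 genes changed by 2 on the log2 scale, 100% were recovered with 7.41% false calls without the replicate block and 16.3% with it. The simulated noise was independent between genes and samples, with no replicate effect and no error tied to GC content. These rates therefore need not hold for the data.

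The replicate number marks a repeat of the procedure per the study's methods. The differences between the RNA samples correlated between the days (r = 0.769, 11584 genes). Both differences also correlated with GC content over 11429 genes (r = -0.864 at day 0 and -0.701 on day 4). The correlation between the days thus cannot show by itself that the numbers pair the samples. Named are members with a mean of at least 1 FPKM or a call, and from each list of partners up to 2 called genes with the largest rise and 2 with the largest fall. Members and lists were chosen with earlier results of these data known. Promoter windows are from RefSeq. Python 3.11.15, pandas 2.3.3, numpy 2.4.6 and matplotlib 3.10.9 were used. A gene of the set that meets the rule is not reported here by name. Spike-ins and other quantifications were not analysed here.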

Additional observations from a re-analysis of the deposited data

How the results depend on the processing

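P-values rest on the spread of 2 RNA samples per day, which limma moderates with that of all genes. The replicate block takes the difference shared by the replicate numbers out of that spread. Where an RNA sample is left out, its day has no spread of its own. Low FPKM are rounded by RSEM, and no depth per gene is known. As deposited, 20 members were called higher and 8 lower. Only counts that moved by more than 1.5 times are given for each setting. With genes of at least 1 FPKM only, 24 of the 55 members were tested. Of these, 9 were called higher (1 basement membrane, 4 other) and 0 other members lower, against 2092 higher and 2064 lower of 11584 genes. Members under 1 FPKM, Col7a1 and Col19a1 among them, were not tested there, so that these counts cannot be set against those of all 55. With the mix 4 vials only, 8 were called higher (2 fibrillar, 2 basement membrane, 4 other) and 0 lower in all classes, against 1044 higher and 368 lower of all 20491 genes. With a pseudocount of 1, 4 were called lower (0 fibrillar, 0 other), against 2122 of all genes. With a pseudocount of 0.01, 1 other member was called lower, against 3209 of all genes. With the mean of log2 values over the vials, 3 were called lower (0 fibrillar, 2 basement membrane, 1 other), against 2050 of all genes. Without a trend, 4 were called lower (0 fibrillar, 0 other), against 2597 of all genes. At the transcript level, 4 genes had a row called lower (0 fibrillar, 0 other) and 7 other genes a row called higher. With equal library sums, 2 fibrillar members were called lower, against 2736 of all genes. Corrected for GC content, 13 were called lower (2 fibrillar, 9 basement membrane), and 7 fibrillar and 17 other members higher. Without the mix 3 and mix 4 vials of RNA sample 2 of day 0, 19 were called lower (3 fibrillar, 11 basement membrane, 5 other). With the replicate block, 16 were called lower (2 fibrillar, 10 basement membrane, 4 other), 29.1% of all genes being called lower with it, and it ended no call of a named member. Leaving out each RNA sample gave 0 to 16 members higher (fibrillar 0 to 4, basement membrane 0 to 4, other 0 to 8) and 0 to 17 lower (fibrillar 0 to 3, basement membrane 0 to 9, other 0 to 5), the counts of 0 in limma being those without either RNA sample of day 4, where 18 and 20 members had an unadjusted p under 0.05. A day left with a lone RNA sample is assumed to vary like the other. Without RNA sample 1 of day 0 the log2 fold change was -1.68 for Col1a1 and 7.92 for Col3a1. Without RNA sample 2 of day 0 it was -3.40 for Col1a1 and 6.94 for Col3a1. Counts from settings with a lone RNA sample on a day are not read as results about the members. Lamb2 turned to 0.18 with the correction for GC content. Col18a1 turned to 0.94 with that correction, to 0.34 with the mix 4 vials only and, when each RNA sample was left out, ranged from -1.62 (without RNA sample 2 of day 0) to 0.12 (without RNA sample 1 of day 0). The causes were not tested. No other member that was called or had a mean of at least 1 FPKM changed direction, and of the 17 members outside this rule, 11 did in at least 1 setting, 7 of them with the correction for GC content. Chain ratios and class sums corrected for GC content, the fibrillar sum without Col3a1, and the counts for all genes in single settings, were added after the data were examined.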
